A study of Mus musculus with 4 samples.

Results

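Tnfsf11 encodes RANKL, a membrane-bound and shed cytokine of the TNF family that is best known for driving osteoclasts and lymph node development. The cells described here are activated mouse splenic CD4 T cells that carry Tnfsf11 RNA without high levels of the other early response genes that were used to set them apart. They were chosen by measured counts. A barcode needed at least 2000 UMIs (unique molecular identifiers, each standing for 1 captured transcript), at least 500 detected genes, at most 10% mitochondrial UMIs and at least 1 UMI of Cd3e, Cd3d or Cd3g. It also needed fewer than 3 UMIs of Ccl4 and of Il2, fewer than 2 of Egr3 and 0 of Foxp3, and cells that met all of this are called gated cells. Of 14486 gated cells, 3156 (21.8%) held at least 2 Tnfsf11 UMIs and are called Tnfsf11 cells. They were 16.5% of the 19100 barcodes that passed the quality limits. The 9731 gated cells with no Tnfsf11 UMI are called Tnfsf11-zero cells, and 1599 gated cells with 1 Tnfsf11 UMI lay between.

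Spleen cells of C57BL6/J mice were sorted for CD3 and CD4, cultured for 6 h with beads carrying antibodies to CD3 and CD28, and profiled with 10x 3′ v3.1 chemistry. All 4 libraries were stimulated, so no unstimulated cells were measured. Each sex gave 1 library labelled Irf5-/- and 1 labelled WT. The labels name no promoter or cell type for the knockout, and give neither the ages nor the number of mice per library. Irf5 codes for a transcription factor of the interferon regulatory family. Values of the 4 libraries are printed below in 1 fixed order: female Irf5-/-, female WT, male Irf5-/- and male WT.

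RANKL binds RANK (Tnfrsf11a) on osteoclast precursors, dendritic cells and stromal or epithelial cells, and its decoy receptor osteoprotegerin (Tnfrsf11b) blocks that binding. Signals from RANK run through TRAF adaptors to NF-kB, AP-1 and NFATc1. In T cells the Tnfsf11 gene is switched on by the T cell receptor, and the protein is cut from the membrane by metalloproteases of the ADAM and MMP families. CD40 ligand, TNF and lymphotoxins are other TNF family ligands that CD4 T cells make soon after activation.

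The given markers of these cells were Tnfsf11, Bend4, Spry1 and Ndrg1. Tnfsf11 lies at chr14:78277445-78308043 on the minus strand and Bend4, a BEN-domain DNA-binding protein gene, at chr5:67392147-67428310 on the minus strand (GRCm38). Spry1, which encodes the Sprouty inhibitor of receptor signalling, lies at chr3:37639947-37644598 on the plus strand. Ndrg1, a stress- and hypoxia-responsive gene, lies at chr15:66929318-66969640 on the minus strand. The 250 bases before the RefSeq start of 2 of these genes are shown because both windows hold the same 10-base match to the NF-kB motif (GGGA, any 4 bases, CC), found on the opposite strand and printed in capitals. Tnfsf11 (chr14:78308044-78308293, minus strand, GRCm38.p6, match 155 to 146 bases before the start) and Spry1 (chr3:37639697-37639946, plus strand, match 59 to 50 bases before the start) read, 5′ to 3′ on the gene's strand:
Tnfsf11: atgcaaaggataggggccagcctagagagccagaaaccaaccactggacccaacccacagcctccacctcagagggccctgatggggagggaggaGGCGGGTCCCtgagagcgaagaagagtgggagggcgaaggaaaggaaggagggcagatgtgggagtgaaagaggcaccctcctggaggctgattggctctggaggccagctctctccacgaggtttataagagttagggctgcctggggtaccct
Spry1: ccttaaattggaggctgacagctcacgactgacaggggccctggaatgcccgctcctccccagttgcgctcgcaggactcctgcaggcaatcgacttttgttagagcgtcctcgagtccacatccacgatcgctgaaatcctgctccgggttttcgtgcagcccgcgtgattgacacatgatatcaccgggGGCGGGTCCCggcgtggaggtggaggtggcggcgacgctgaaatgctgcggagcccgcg
The motif, searched on both strands, occurs in 17.6% of 32851 RefSeq windows of the same length, and the 10 bases themselves in 0.256% of them. The same search for NBRE (AAAGGTCA), AP-1 (TGANTCA), the NFAT core (TGGAAA), CRE (TGACGTCA), E-box (CACGTG), EGR (GCGGGGGCG) and RUNX (TGTGGT) letters on both strands gave no match in either window. These letters occur in 1.34%, 6.75%, 18.6%, 1.55%, 6.02%, 2.57% and 14% of all windows, in that order. The Bend4 window was searched too and held no match to any of these motifs.

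The Tnfsf11 cells numbered 836, 396, 1077 and 847 in the 4 libraries. Their median depth was 6194, 9929, 8109 and 11468 UMIs per cell, against 4534, 6915, 5761.5 and 7952 in Tnfsf11-zero cells. The libraries labelled Irf5-/- were thus the shallower library of each sex, and the Tnfsf11 cells were deeper than the Tnfsf11-zero cells in each library. Pairs of libraries shared between 2 and 14 cell barcodes. Cells in the highest doublet scores made up 5.67% of Tnfsf11 cells and 3.34% of Tnfsf11-zero cells. By library they were 7.42%, 1.77%, 7.06% and 4.01% of Tnfsf11 cells and 4.10%, 1.44%, 3.57% and 2.57% of Tnfsf11-zero cells. Both libraries labelled Irf5-/-, which held more cells, thus had the higher shares. Of 4407 cells with a Cd3 UMI and at least 2 Tnfsf11 UMIs, the limits on the other genes kept 71.6%. Among those 4407 cells, 628 were over the Egr3 limit, 500 over the Il2 limit, 254 over the Ccl4 limit and 70 held Foxp3, with some cells over several limits.

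Among the Tnfsf11 cells, 925 held 2 Tnfsf11 UMIs, 1043 held 3 or 4 and 1188 held 5 or more, up to 25. Free RNA in droplets with fewer than 200 UMIs carried Tnfsf11 at 133, 147, 128 and 138 CPM (UMIs of the gene scaled to a fixed library total). The amount of free RNA differed more: such droplets held 8.62%, 36.2%, 9.56% and 14.7% of all UMIs, the most in the female WT library. In 54 erythroid cells, which should lack the gene and had a median of 17619.5 UMIs, 2 held at least 2 Tnfsf11 UMIs (3.70%, exact 95% binomial interval 0.452 to 12.7%). After every cell was thinned to 2000 UMIs, 17.2%, 19.7%, 17.1% and 16.2% of gated cells held a Tnfsf11 UMI, against 1.85% of erythroid cells (0.0469 to 9.89%).

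The label CD4 T cell was checked against marker genes. Tnfsf11 cells carried all 10 CD4 T cell markers, at a summed 2999 to 3369 CPM per library, against 3240 to 3795 CPM in Tnfsf11-zero cells. Cd3d, Cd3e and Cd3g are among these markers and entered the rule, so part of both sums was set by it. Trac, the constant segment of the T cell receptor alpha chain, stood at 775 ± 15.8 CPM (SD, n = 4). Cd4 RNA stood at 41.7 ± 1.38 CPM in Tnfsf11 cells and 58.2 ± 7.94 CPM in Tnfsf11-zero cells. Markers of NK and CD8 cells summed to 13.8 to 20.7 CPM in Tnfsf11 cells and 61.7 to 102 CPM in Tnfsf11-zero cells, with 8 of 10 genes seen and Ncr1 and Klra8 at 0. Markers of innate-like T cells summed to 11.6 to 19.4 CPM against 22.1 to 67.2 CPM, with 6 of 7 genes seen and Klrb1b at 0. The list for lymphoid tissue inducer cells, the RANKL-bearing innate cells of lymph node development, summed to 53.1 to 90.8 CPM with all 10 genes seen. It was carried by Gata3 (43.0 ± 14.5 CPM) and Id2 (27.3 CPM), which activated T cells also express. B cell markers (15.1 to 27.0 CPM, 6 of 8 seen, Ms4a1 among those at 0), myeloid markers (27.1 to 28.0 CPM, 7 of 10 seen, Adgre1, Itgax and Tyrobp at 0) and erythroid markers (2.91 to 16.8 CPM, 5 of 7 seen, Alas2 among those at 0) were low. The female WT library had the most erythroid RNA, 254 CPM in its Tnfsf11-zero cells against 6.83 to 10.5 CPM in the other 3 libraries. The part of these cells in the results below was not tested.

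The data were read in CPM of the UMIs summed over the Tnfsf11 cells of each library, and the library was the unit of replication. Since the rule chose the cells by Tnfsf11, the comparison with Tnfsf11-zero cells is a description with no test. Log2 ratios were taken within each library on CPM + 1 and are given as the mean over libraries. Tnfsf11-zero cells were used as they are, then weighted to the UMI bins of the Tnfsf11 cells, and then weighted to both the UMI bins and the level of 8 activation genes (Cd69, Myc, Irf4, Nfkbid, Il2ra, Tnfrsf4, Nr4a1 and Bhlhe40).

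Tnfsf11 itself stood at 594, 481, 534 and 423 CPM in Tnfsf11 cells, and over all cells with a Cd3 UMI at 159, 229, 170 and 168 CPM. The cells just inside the threshold, with 2 UMIs, had 321, 192, 241 and 174 CPM, and those just outside, with 1 UMI, had 162, 99.4, 120 and 90.2 CPM. The shallowest library, female Irf5-/-, had the highest level in each class: at a fixed number of UMIs, the CPM falls as depth rises.

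Bend4 stood at 39.0, 45.4, 43.8 and 29.7 CPM in Tnfsf11 cells and at 15.4, 11.5, 17.3 and 13.7 CPM in Tnfsf11-zero cells. The 2 sets of libraries did not overlap, but Bend4 was given as a marker of these cells. The male WT library was the lowest of the Tnfsf11 cells. The mean log2 ratio was 1.39 ± 0.35 (SD, n = 4), 1.22 against UMI-weighted cells and 1.09 against cells weighted to UMIs and activation. After both weightings the libraries lay between 0.70 and 1.95, with the female WT library the highest.

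Spry1 stood at 168, 186, 162 and 153 CPM in Tnfsf11 cells and at 64.4, 55.3, 60.2 and 64.7 CPM in Tnfsf11-zero cells. No library of the first set came near the second, but Spry1 was likewise a given marker. The log2 ratio of 1.43 ± 0.22 was 1.00 with UMI weighting and 0.79 with UMI and activation weighting. Ndrg1 stood at 95.1, 119, 104 and 101 CPM against 42.4, 44.8, 46.1 and 46.0 CPM, and its log2 ratio of 1.20 ± 0.13 was 0.46 after both weightings. In all 4 libraries each of the 3 markers stayed higher in Tnfsf11 cells under each of these comparisons.

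The marker levels were graded by the number of Tnfsf11 UMIs in the cell. Spry1 averaged 61.2 CPM in cells with 0 UMIs, 115 with 1, 139 with 2, 167 with 3 or 4 and 187 with 5 or more. Bend4 averaged 14.4, 31.9, 32.7, 36.1 and 46.7 CPM over the same classes, so that cells with 1 and 2 UMIs differed by less than the spread between libraries (SD 6.71 CPM at 1 UMI). Ndrg1 averaged 44.8, 69.4, 75.3, 110 and 120 CPM. Deeper cells have more Tnfsf11 UMIs, and depth was not held equal between these classes.

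**Figure D1:**
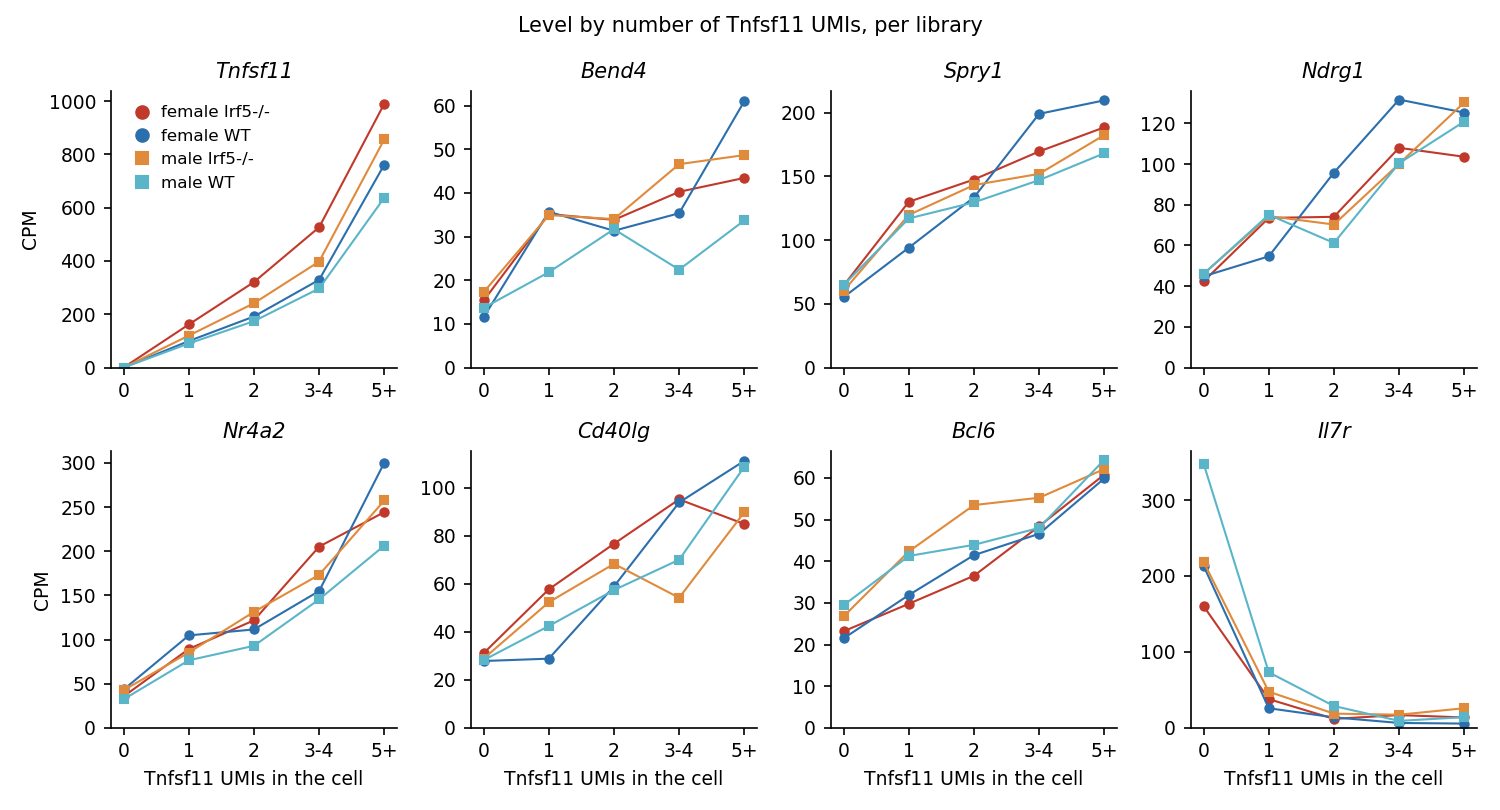
CPM of 8 genes (vertical axes, linear, from 0) by the number of Tnfsf11 UMIs in the gated cell (horizontal axes), with 1 line per library. Nr4a2 averages 38.5 CPM at 0 UMIs and 252 CPM at 5 or more, while Il7r averages 235 CPM at 0, 46.1 CPM at 1 and 14.8 CPM at 5 or more.

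The cells with 1 Tnfsf11 UMI, which the rule leaves out, were closer to the Tnfsf11 cells than to the Tnfsf11-zero cells for Il7r, the interleukin-7 receptor of resting T cells. It averaged 235 ± 79.7 CPM at 0 UMIs, 46.1 ± 20.1 at 1 and 18.3 ± 7.55 at 2. For genes that were higher the steps were smaller: Nr4a1, an orphan nuclear receptor induced by the T cell receptor, averaged 249.0, 445, 561, 635 and 876 CPM over the 5 classes. Bcl6, a repressor that marks the follicular helper lineage, averaged 25.2, 36.3, 43.8, 49.5 and 61.8 CPM.

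Tnfsf11-zero cells were mixed in their activation. At 2000 UMIs per cell, the 8 activation genes summed to a median of 9 or 10 UMIs in Tnfsf11 cells of each library and of 2 or 3 in Tnfsf11-zero cells. Between 0.239 and 0.708% of Tnfsf11 cells had no UMI of these genes, against 24.3 to 30.2% of Tnfsf11-zero cells. The Tnfsf11-zero cells therefore held both responding cells and cells with no detected response. Cd69, the classical early activation antigen, was seen in 86.5%, 83.6%, 87.6% and 85.5% of thinned Tnfsf11 cells and in 50.02%, 45.4%, 48.1% and 45.9% of thinned Tnfsf11-zero cells. In erythroid cells the share was 16.7%.

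Of 8439 genes with a mean of at least 5 CPM in either cell group, 25 (0.296%) were at least 2-fold higher in Tnfsf11 cells in all 4 libraries and 738 (8.75%) at least 2-fold lower, 9.04% together. Of the 738, 371 passed the level minimum only through Tnfsf11-zero cells and so could only come out lower. Against UMI-weighted cells the counts were 12 (0.142%) and 288 (3.41%), 3.55% together. Against cells weighted to UMIs and activation they were 1 (0.0118%) and 28 (0.332%), 0.344% together. The gene that remained 2-fold higher, named after its values were seen, was Nr4a2. A difference in the same direction in all 4 libraries, the looser count used for gene lists below, was found for 33.2% of genes (higher) and 45% (lower) against all Tnfsf11-zero cells. It was found for 26.2% and 41.6% with UMI weighting and for 15.8% and 33% after both weightings. The median log2 ratio of all genes was −0.08, −0.08 and −0.07.

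Nr4a2, an orphan nuclear receptor of the same family as Nr4a1 and Nr4a3, stood at 188, 207, 195 and 161 CPM in Tnfsf11 cells and at 35.7, 43.4, 42.6 and 32.4 CPM in Tnfsf11-zero cells. The 2 sets did not overlap and the lowest Tnfsf11 value was over 3 times the highest Tnfsf11-zero value. Nr4a2 was named by its ratio in its weakest library, so this gap follows from the choice. The log2 ratio of 2.26 ± 0.09 was 2.14 with UMI weighting and 1.33 after both weightings, with libraries between 1.22 and 1.49. In thinned cells Nr4a2 was seen in 24.3%, 29.8%, 23.8% and 21.8% of Tnfsf11 cells, 4.65%, 5.28%, 5.44% and 4.46% of Tnfsf11-zero cells and 3.70% of erythroid cells. Nr4a3 had log2 ratios of 1.62 and 0.65, unweighted and after both weightings. Nr4a1, itself an activation gene of the second weighting, had 1.52 both unweighted and with UMI weighting.

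Plaur, the urokinase receptor, stood at 44.9, 45.9, 51.1 and 44.7 CPM against 18.2, 13.4, 15.5 and 12.3 CPM, with log2 ratios of 1.60 and, after both weightings, 0.86. Bcl6 stood at 48.0, 51.0, 57.4 and 54.5 CPM against 23.2, 21.5, 26.8 and 29.4 CPM, with ratios of 1.04 and 0.77. Ntrk3, a neurotrophin receptor, had ratios of 1.06 and 0.73, and Ramp3, a co-receptor of calcitonin-family receptors, 0.92 and 0.68. Runx1, a transcription factor of T cell development and activation, stood at 129, 116, 113 and 92.9 CPM against 72.2, 69.9, 71.3 and 55.2 CPM. Its ratios of 0.74 and 0.63 differed little between the comparisons. The mitochondrial glycerol-phosphate dehydrogenase gene Gpd2 (0.83 and 0.72), the lipid droplet gene Hilpda (1.28 and 0.61), the cell cycle regulator gene Rgcc (0.80 and 0.59), the small nucleolar host RNA Snhg6 (1.27 and 0.60) and the sterol carrier gene Gramd1b (1.28 and 0.64) were also higher in all 4 libraries.

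Another set of genes was higher beside UMI-weighted cells and lost most of that ratio once activation was weighted. Egr1, an immediate early transcription factor, had a log2 ratio of 1.14 beside UMI-weighted cells and 0.00 after both weightings, with libraries between −0.11 and 0.09. Atf3 had 1.18 and 0.28, Kdm6b, an H3K27 demethylase, 1.10 and 0.34, Fosl2, an AP-1 subunit, 1.19 and 0.30, and Egr2 1.16 and 0.37. Gfi1, a repressor of lymphocyte differentiation, had 1.06 and 0.41. The activation genes Nfkbid (1.27) and Bhlhe40 (1.19) entered the second weighting, so a ratio after it says nothing of its own. Some of these ratios depended on the limits that define gated cells. With no limits on Ccl4, Il2, Egr3 and Foxp3, the unweighted ratio went from 1.11 to 0.32 for Egr1, from 1.31 to 0.83 for Egr2, from 1.52 to 1.06 for Nr4a1 and from 1.62 to 1.14 for Nr4a3.

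**Figure D2:**
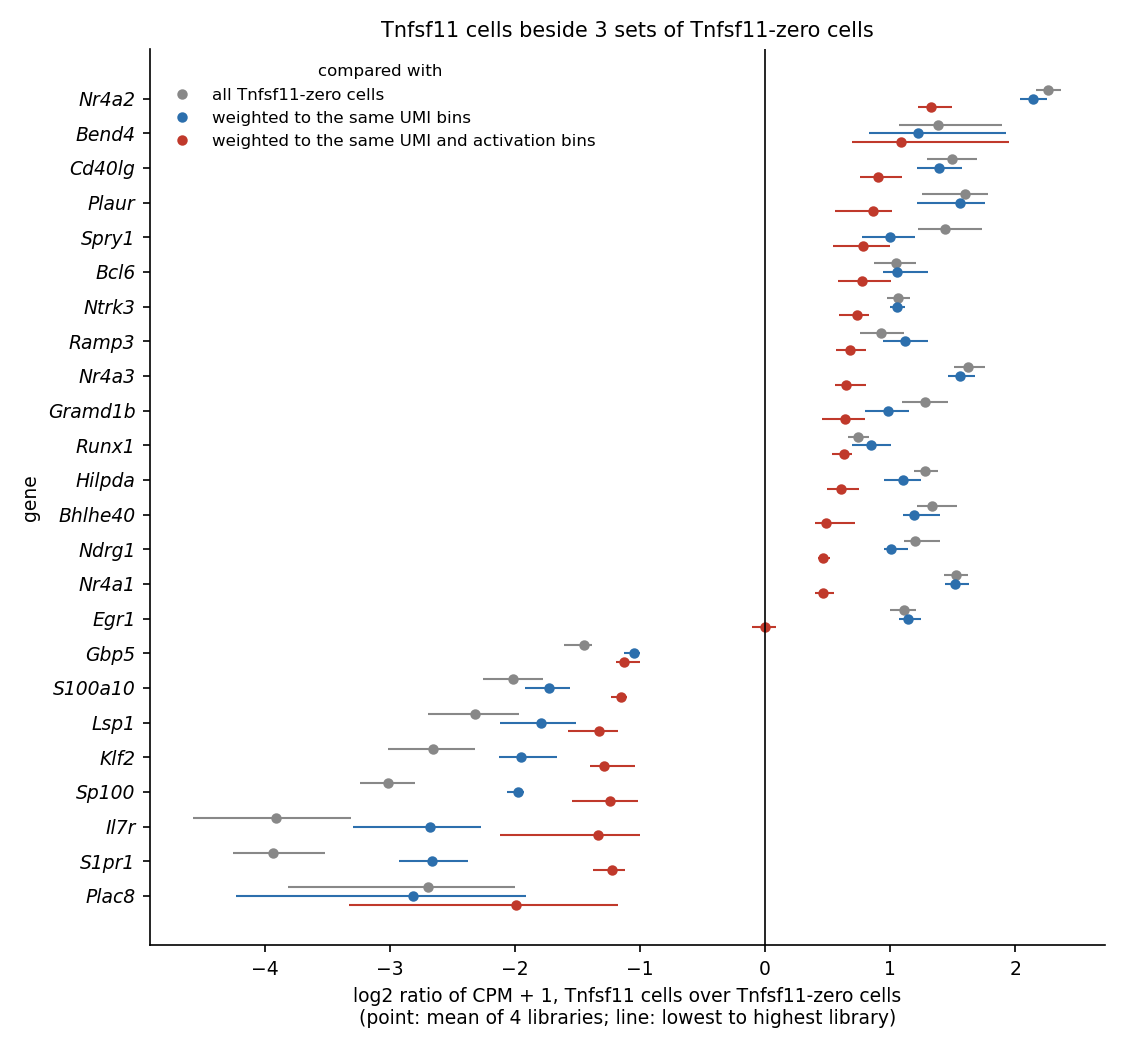
Log2 ratio of CPM + 1 (horizontal axis) for 24 genes (vertical axis), Tnfsf11 cells over all Tnfsf11-zero cells (grey), over UMI-weighted cells (blue) and over cells weighted to UMIs and activation (red; Nr4a1 and Bhlhe40 entered that weighting). Points are means of 4 libraries and lines run from the lowest to the highest library: Nr4a2 is the highest at 1.33 after both weightings, Egr1 moves to 0.00 and Plac8 is the lowest at −1.99.

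TNF family ligands other than Tnfsf11 were not all higher in these cells. Of 17 listed genes, 7 were measured at 5 CPM or more. Against all Tnfsf11-zero cells, 5 were higher and 2 lower in all 4 libraries. After both weightings 2 were higher, 2 lower and 3 mixed, with a median log2 ratio of 0.09.

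Cd40lg, the CD40 ligand with which CD4 T cells help B cells, stood at 85.9, 92.3, 72.2 and 84.8 CPM in Tnfsf11 cells and at 31.1, 27.9, 28.9 and 28.2 CPM in Tnfsf11-zero cells. The lowest Tnfsf11 value was over 2 times the highest Tnfsf11-zero value, but Cd40lg too was among the genes named by their ratio. Its log2 ratio was 1.49 ± 0.17 and stayed at 0.90 after both weightings, between 0.75 and 1.10 in the libraries. Cd40lg was seen in 11.6%, 10.6%, 11.5% and 12.04% of thinned Tnfsf11 cells, 4.95%, 4.68%, 4.25% and 5.23% of thinned Tnfsf11-zero cells and 0 of 54 erythroid cells. Fasl, the death ligand, stood at 35.5, 48.1, 33.8 and 33.1 CPM against 20.3, 18.7, 22.9 and 16.2 CPM, with ratios of 0.91 and 0.52.

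Tnf stood at 78.9, 108, 84.9 and 106 CPM against 41.3, 36.3, 40.2 and 48.4 CPM. Its log2 ratio of 1.16 ± 0.27 was 0.15 after both weightings and took both signs among libraries. Lta, the lymphotoxin alpha gene, stood at 44.1, 54.1, 38.9 and 68.9 CPM against 29.9, 22.9, 27.4 and 33.8 CPM, with ratios of 0.81 and 0.07. Tnfsf8 (CD30 ligand) stood at 363, 361, 318 and 278 CPM against 264, 283, 269 and 234 CPM, and its ratio of 0.32 was 0.09 after both weightings. Each of these 3 ligands was higher in all 4 libraries without weighting, and none kept its direction in all 4 when activation was weighted.

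Ltb, the membrane lymphotoxin beta subunit of resting and activated lymphocytes, was lower: 236, 241, 268 and 333 CPM against 481, 446, 527 and 527 CPM. Its log2 ratio was −0.89 ± 0.16, and −0.45 after both weightings. Tnfsf10 (TRAIL), an interferon-responsive ligand, stood at 1.10, 0.728, 1.08 and 0.885 CPM against 5.32, 7.47, 4.27 and 3.22 CPM, with ratios of −1.60 and −0.38. Tnfsf10 passed the level minimum only through Tnfsf11-zero cells, so it could only come out lower, and Ltb was the 1 lower ligand among the 6 measured in both groups.

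**Figure D3:**
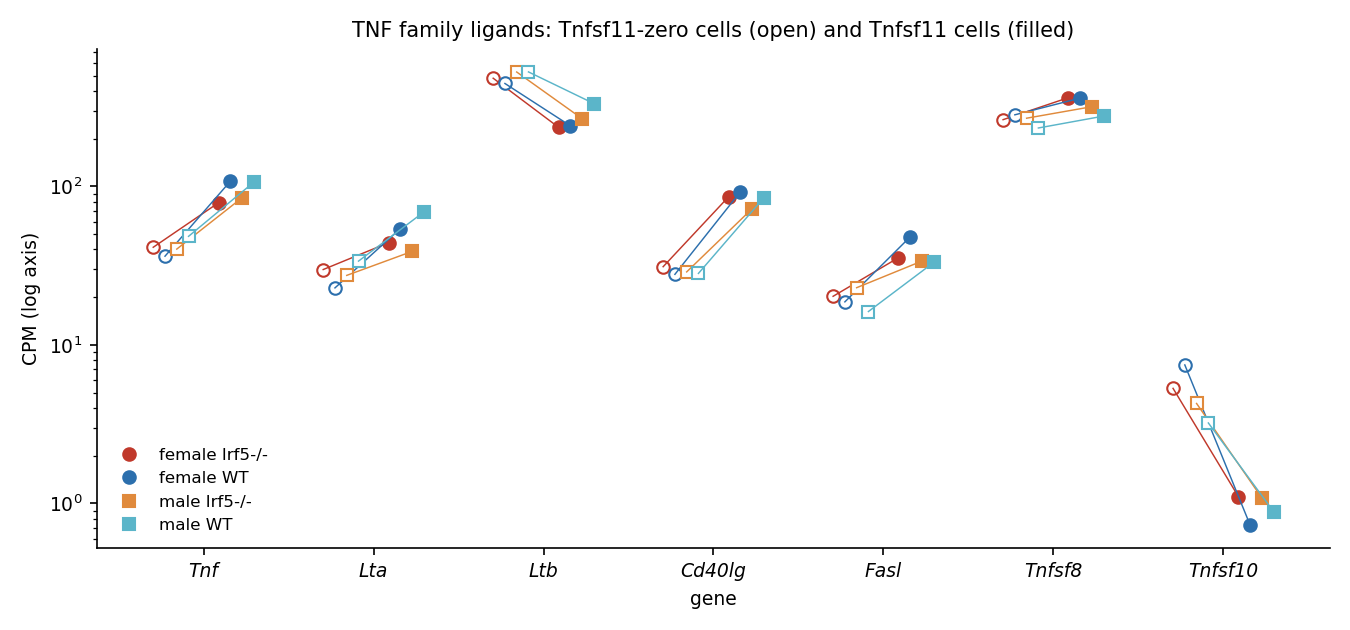
CPM (vertical axis, log scale) of 7 TNF family ligands in Tnfsf11-zero cells (open symbols) and Tnfsf11 cells (filled symbols) of each library, joined by lines. Cd40lg goes from 27.9 to 31.1 CPM up to 72.2 to 92.3 CPM, and Ltb from 446 to 527 CPM down to 236 to 333 CPM.

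The receptors of the pathway were near 0 in these T cells. Tnfrsf11a (RANK) had no UMI in Tnfsf11 cells, and Tnfrsf11b (osteoprotegerin) stood at 0.108 CPM in the male Irf5-/- library and 0 in the other 3. Of 20 genes listed for the pathway, 14 were measured: 6 were higher and 4 lower in all 4 libraries (3 lower of the 13 measured in both groups), and after both weightings 3 were higher and 2 lower, with a median log2 ratio of −0.03. Nfatc1, the transcription factor that RANK signals induce in osteoclasts and the T cell receptor induces in T cells, stood at 160 ± 5.58 CPM against 94.3 ± 6.02 CPM, with ratios of 0.76 and 0.20. The adaptor gene Traf3 had 0.40 and 0.12 and Traf6, the main RANK adaptor, 0.15 and −0.04. Traf5 was lower at 5.92 ± 0.968 CPM against 15.9 ± 1.97 CPM, with ratios of −1.30 and −0.23. Adam10, a membrane protease that can shed ligands of this family, had a ratio of 0.28 that was also 0.28 after both weightings, and Adam17 had 0.02 and −0.02. Mmp14 stood at 0.324 CPM in the male Irf5-/- library and at 0 in the others.

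Of 12 measured TNF receptor genes, 1 was higher and 6 lower in all 4 libraries, and after both weightings 0 of 11 were higher and 6 lower, with a median log2 ratio of −0.27. Of the 12, 2 passed the level minimum only through Tnfsf11-zero cells. Tnfrsf4 (OX40), one of the activation genes of the weighting, stood at 459, 277, 373 and 273 CPM against 294, 194, 291 and 195 CPM. Tnfrsf18 (GITR) had a ratio of 0.10, and −0.27 after both weightings.

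Genes of ribosome production and growth were higher. Of 19 measured genes of the Myc and growth list, 19 were higher in all 4 libraries, with a median log2 ratio of 0.76, and after both weightings 17 of 18 were higher, with a median of 0.21. The nucleolar genes Ncl (0.70 and 0.20) and Npm1 (0.61 and 0.23), the translation factor gene Eif5a (0.59 and 0.17) and the polyamine enzyme gene Odc1 (0.80 and 0.37) had the highest levels of the list. Nutrient transporter genes followed, with 10 of 11 higher and 1 lower, and 9 higher after both weightings. Tfrc, the transferrin receptor, stood at 373 ± 5.49 CPM against 185 ± 7.19 CPM, and Slc7a1, an arginine transporter, at 417 ± 24.4 CPM against 221 ± 12.9 CPM.

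Early genes of the T cell receptor response were higher in 18 of 22 cases and lower in 3, with a median log2 ratio of 0.76. After both weightings, 5 of the 15 that were not used for the weighting were higher and 4 lower. Of the NF-kB list, 8 of 14 were higher and 3 lower, and 4 were higher and 6 lower after both weightings. Nfkb1, the p105 and p50 precursor, stood at 1117 ± 81.3 CPM against 582 ± 41.1 CPM with ratios of 0.94 and 0.32, and Rel at 461 ± 41.7 CPM against 266 ± 28.4 CPM with ratios of 0.80 and 0.12. Nfkbia, the inhibitor that NF-kB itself induces, changed sign between the comparisons, from 0.17 to −0.21.

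Ndrg1 was set beside a list of glycolysis and hypoxia genes: 10 of 24 measured genes were higher and 10 lower in all 4 libraries, and after both weightings 4 were higher and 12 lower. Ldha stood at 509 ± 16.3 CPM against 410 ± 18.7 CPM, with ratios of 0.31 and 0.02, and Gapdh at 289 ± 14.3 CPM against 337 ± 17.8 CPM, with ratios of −0.22 and −0.24. Spry1 was likewise set beside other Sprouty, Spred and dual-specificity phosphatase genes, of which 5 of 9 were higher and 1 lower, and 3 were higher and 2 lower after both weightings, when the median log2 ratio went from 0.36 to −0.09. Dusp5 (0.76 and 0.22) and Dusp2 (0.97 and 0.14), phosphatases that act on MAP kinases, had the highest levels.

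Many genes of resting T cells were lower. Of 19 naive and quiescence genes, 15 were lower and 3 higher in all 4 libraries, with a median log2 ratio of −1.42, and 12 were lower after both weightings, with a median of −0.76. Of the 16 measured in both groups, 12 were lower without weighting. Klf2, the transcription factor that holds T cells in the circulating resting state, stood at 64.2, 51.2, 80.4 and 51.4 CPM against 372, 359, 405 and 422 CPM, with ratios of −2.66 and −1.29. S1pr1, the exit receptor that Klf2 controls, stood at 6.80, 5.10, 6.48 and 4.33 CPM against 88.7, 110, 100 and 101 CPM, with ratios of −3.93 and −1.23. Il7r stood at 14.2, 8.01, 21.1 and 15.9 CPM against 160, 213, 218 and 348 CPM, with ratios of −3.92 and −1.33. The 3 genes of this list that were higher, Satb1 (0.23), Btg1 (0.09) and Foxp1 (0.14), were among its 4 highest in level, and the fourth, Ccr7, had −0.24. The lower genes named by their ratio had to reach 30 CPM in either cell group. Itga6, Sp100, S1pr1 and Il7r met that minimum only through Tnfsf11-zero cells, so under it they could only come out lower. Among the genes so named, Itga6, an integrin chain, stood at 5.52 to 9.18 CPM against 88.4 to 118 CPM, with ratios of −3.62 and −1.36. Sp100, a nuclear body protein gene, stood at 11.2 to 17.3 CPM against 114 to 149 CPM, with ratios of −3.02 and −1.24. Plac8 had −2.69 and −1.99, Dtx3l, a ubiquitin ligase gene, −2.94 and −1.42, Cnp −4.17 and −1.49 and Rflnb −4.28 and −1.39. Without the cells of highest doublet score the unweighted ratios were further from 0, at −4.64 for Il7r, −4.67 for S1pr1, −4.92 for Cnp and −5.25 for Rflnb.

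Genes of memory and effector cells were lower in 9 of 11 cases and higher in 2, but 6 of the 11 were measured only through Tnfsf11-zero cells, and of the other 5, 3 were lower. S100a10 stood at 31.3, 23.8, 28.4 and 26.7 CPM against 110, 108, 109 and 131 CPM, with ratios of −2.02 and −1.15. Lsp1, a leukocyte actin-binding protein gene, had −2.32 and −1.32. Of the Treg list, 4 of 7 measured genes were lower and 0 higher, and 7 of 7 were lower after both weightings, 2 of them measured only through Tnfsf11-zero cells. Cells with Foxp3 had been removed from both groups. Of 8 measured cytokine genes, 3 were higher and 3 lower in all 4 libraries, and 3 of the 5 measured in both groups were higher. Il4, measured only through Tnfsf11-zero cells, averaged 2.14 CPM in Tnfsf11 cells and 11.6 CPM in Tnfsf11-zero cells. Ifng averaged 1.73 and 3.94 CPM.

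All 17 measured interferon-stimulated genes of the list were lower in all 4 libraries, under each of the 3 comparisons, with medians of −2.43, −1.33 and −0.89. Of these, 5 were measured only through Tnfsf11-zero cells, and the 12 measured in both groups were all lower without weighting. Ifi27l2a stood at 130 ± 30.8 CPM against 533 ± 98.3 CPM (−2.04 and, after both weightings, −0.84), and Zbp1, a sensor of Z-form nucleic acids, at 26.2 ± 8.58 CPM against 143 ± 36.0 CPM (−2.43 and −1.01). Of 15 measured cytokine receptor genes, 11 were lower, 1 higher and 3 mixed, beside 45% of all genes lower in all 4 libraries. Of the 14 measured in both groups, 10 were lower. The interferon gamma receptor chain Ifngr1 stood at 34.3 ± 6.97 CPM against 263 ± 20.7 CPM, with ratios of −2.93 and −0.92, while the interleukin-2 receptor chain Il2ra, one of the activation genes, had 0.72.

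The share of Tnfsf11 cells was compared between the libraries labelled Irf5-/- and WT. They made up 17.8% (exact 95% binomial interval 16.7 to 18.9%), 29.1% (26.7 to 31.6%), 21.6% (20.4 to 22.8%) and 24.6% (23.2 to 26.1%) of gated cells. Both libraries labelled Irf5-/- lay below both labelled WT. The means were 19.7 ± 2.67% and 26.9 ± 3.19% (SD, n = 2 each), and an exact permutation test gave a two-sided p of 0.33, the smallest that 2 libraries against 2 allow. Thinned to 2000 UMIs per cell, the means of gated cells with a Tnfsf11 UMI were 17.1 ± 0.0835% and 17.96 ± 2.47% (exact permutation p = 1), and the difference moved from −7.17 to −0.826 percentage points. The gap was thus smaller at equal depth, and the female pair (−2.51) and the male pair (0.863) differed in sign. Intervals cover counting error only. The female WT library had the highest share at full depth and also the most free RNA (36.2% of its UMIs). The part of free RNA in these shares was not tested.

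**Figure D4:**
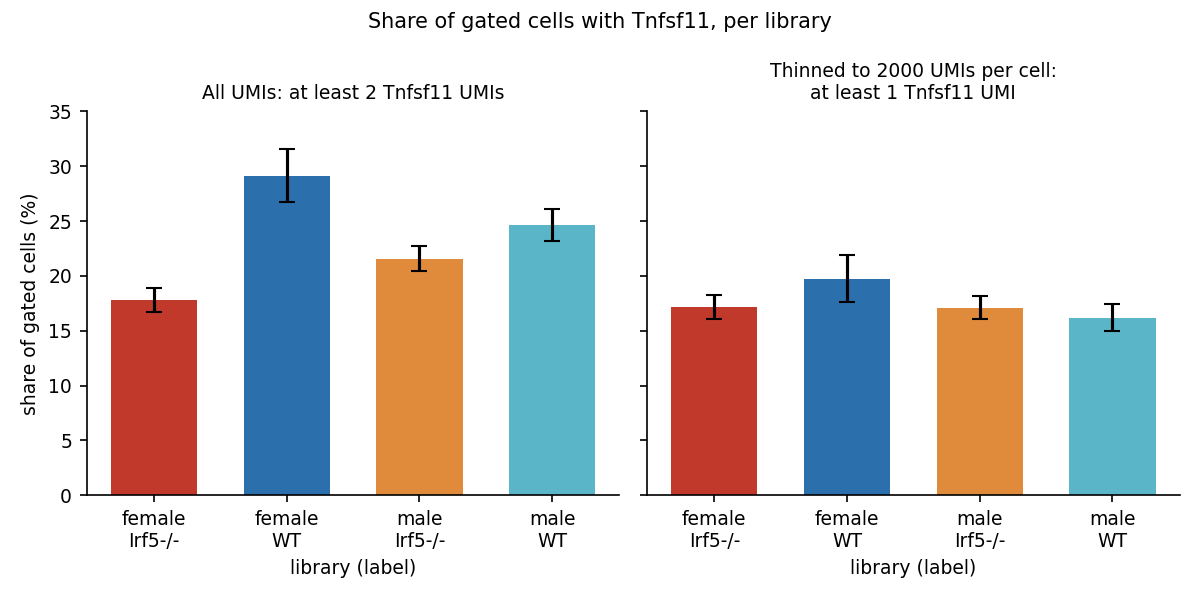
Share of gated cells (vertical axis, percent, from 0) in each library (horizontal axis), with at least 2 Tnfsf11 UMIs at full depth (left) and at least 1 after thinning to 2000 UMIs (right). Bars are shares and lines their exact 95% binomial intervals: they span 17.8 to 29.1% on the left and 16.2 to 19.7% on the right.

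Genotype labels did not enter the rule, so genotype was tested within the Tnfsf11 cells. UMIs were summed per library, and edgeR's quasi-likelihood test with sex as a term was fitted to 9606 genes with Benjamini-Hochberg adjustment. CPM in this comparison carry TMM factors. An adjusted p under 0.05 was reached by 18 genes (0.187%), 13 of them higher (0.135%) and 5 lower (0.0521%) in libraries labelled Irf5-/-, and 671 genes had an unadjusted p under 0.05. Each library has its own combination of sex and label, and the number of mice per library is not given, so these p-values measure the spread between these 4 libraries, part of which may be technical. The libraries labelled Irf5-/- were shallower, as given above. Of 16 called genes followed across settings, 15 kept their call when Tnfsf11 cells were chosen at equal depth, and Tnfaip8l2 had 0.60 (adjusted p = 0.0522). At a minimum of 4000 UMIs 11 kept it, and Tspan13, Iigp1, Gpr183, Filip1l and Tacc2 had adjusted p between 0.0562 and 0.144.

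Irf5 was checked first and went against the labels. It stood at 10.4 and 9.13 CPM in Tnfsf11 cells of the female and male libraries labelled Irf5-/-, and at 1.24 and 0.41 CPM in those labelled WT (log2 fold change 3.80, SE 0.38, edgeR adjusted p = 7.47e-04). It was seen in 52 of 836 and 79 of 1077 Tnfsf11 cells of the libraries labelled Irf5-/-, against 5 of 396 and 4 of 847 of those labelled WT. The labels do not say which part of the gene the allele lacks, and a 3′ tag outside that part would check nothing. Every direction below is that of the labels.

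The 4 given markers did not pass the test. Tnfsf11 within Tnfsf11 cells had a log2 fold change of 0.24 (edgeR adjusted p = 0.408), a value bound to the rule, since the UMI minimum was fixed while depth differed. Bend4 had 0.14 (0.94), Spry1 −0.11 (0.891) and Ndrg1 −0.21 (0.714), with edgeR adjusted p in parentheses. Over all cells with a Cd3 UMI, where no Tnfsf11 limit applies, Tnfsf11 stood at 159, 229, 170 and 168 CPM, with a log2 fold change of −0.25 (edgeR adjusted p = 0.561). The difference was −0.53 in the female pair and 0.02 in the male pair.

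No TNF ligand and no gene of the RANK pathway list was called within Tnfsf11 cells, of 7 and 14 tested. Tnf stood at 76.9, 110, 82.5 and 111 CPM, lower in the library labelled Irf5-/- of each sex, with a log2 fold change of −0.47 (edgeR adjusted p = 0.0725). Lta stood at 43.0, 55.2, 37.8 and 71.8 CPM, with −0.69 (adjusted p = 0.0695). Cd40lg had −0.26 (adjusted p = 0.535). Over all cells with a Cd3 UMI, Tnf (−0.51, edgeR adjusted p = 0.00816) and Lta (−0.49, adjusted p = 0.0463) fell. Tnfrsf4 was the only TNF receptor gene called of 13 tested: it rose by 0.50 (adjusted p = 0.0402).

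Ide, which encodes insulin-degrading enzyme, stood at 125, 65.4, 116 and 72.1 CPM and rose by 0.79 (SE 0.09, edgeR adjusted p = 0.00315). In Tnfsf11-zero cells it rose by 0.85 (adjusted p = 9.09e-04). Plagl1, a zinc finger transcription factor gene, stood at 34.96, 13.9, 29.7 and 17.2 CPM and rose by 0.99 (adjusted p = 0.0152), with 0.95 in Tnfsf11-zero cells (adjusted p = 0.0021). Ncoa7 stood at 72.4, 40.1, 60.1 and 32.6 CPM and rose by 0.87 (adjusted p = 0.00315), with 0.66 in Tnfsf11-zero cells (adjusted p = 0.008). Gpr183 (EBI2), the oxysterol receptor that places activated lymphocytes in the follicle's outer zone, stood at 221, 153, 190 and 103 CPM and rose by 0.72 (adjusted p = 0.00726), with 0.53 in Tnfsf11-zero cells (adjusted p = 0.0475). For each of these 4 genes both libraries labelled Irf5-/- lay above both labelled WT. The genes were chosen by their call and by 1 direction in both sexes, so this separation adds no support. In Tnfsf11-zero cells 48 of 11667 genes (0.411%) were called. The calls for Irf5, Penk, Ide, Sp110 and Sp140 held under all 10 alternative settings. Each of the other 11 genes followed across the settings, which did not include Tnfrsf4, lost its call in at least 1, with 5 genes called when the sex term was left out.

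Jaml, an adhesion molecule gene, rose by 1.55 (adjusted p = 0.00933) and Filip1l by 0.69 (adjusted p = 0.0375). Penk, which encodes the enkephalin precursor, stood at 17.7, 3.22, 20.7 and 1.74 CPM and rose by 3.13 (edgeR adjusted p = 1.92e-04). Its UMIs came from 8, 3, 13 and 2 Tnfsf11 cells, and in the male Irf5-/- library 145 of 197 Penk UMIs lay in 1 cell. The call thus rests on a few cells. In Tnfsf11-zero cells Penk rose by 1.70 (edgeR adjusted p = 0.023), with UMIs again in few cells (15, 4, 15 and 5).

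Sp110 and Sp140, neighbouring genes of the Sp100 family of interferon-responsive nuclear proteins on chromosome 1, had the deepest falls. Sp110 had 1, 351, 1 and 754 UMIs in Tnfsf11 cells, which put it 569 times higher (exact counting interval 157 to 4701) in the libraries labelled WT. Sp140 had 1, 70, 1 and 118 UMIs, 96.7 times higher (26.4 to 804.7). Members of this family share sequence, so reads may be split between them, and both genes fell in Tnfsf11-zero cells too, with edgeR adjusted p of 9.34e-14 and 2.05e-12. Malt1, a paracaspase of the T cell receptor to NF-kB pathway, stood at 167, 269, 153 and 220 CPM and fell by 0.60 on the log2 scale (adjusted p = 0.0076). Cxcl10, a chemokine induced by interferon, stood at 45.0, 76.3, 32.5 and 55.3 CPM and fell by 0.76 (adjusted p = 0.00726).

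Of 16 interferon-stimulated genes tested within Tnfsf11 cells, all 16 had a positive log2 fold change and none was called, with a median of 0.49. Of all 9606 genes, 4840 were positive and the median was 0.00. Ifi27l2a stood at 155, 136, 136 and 89.9 CPM (0.40, edgeR adjusted p = 0.247). The naive list had 12 of 19 positive with a median of 0.23, and the Myc and growth list 5 of 19 with a median of −0.07, with no gene called in either.

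Whether a genotype difference itself differed between Tnfsf11 cells and Tnfsf11-zero cells was tested with an interaction term in edgeR over 8 sums, blocked by library. It was called for 30 of 10964 genes (0.274%), with 726 at an unadjusted p under 0.05. The calls included immunoglobulin genes of B and plasma cells, Igha (−5.99, adjusted p = 8.05e-07), Igkc (−4.64) and Iglc1 (−7.73), and the NK receptor gene Klrc1 (−3.38), named after their values were seen. The part of RNA from such cells in the other calls was not tested. Among the named genes this held for Tnfaip8l2, Iigp1, Tspan13 and Tacc2. Tnfaip8l2 (TIPE2), a brake on T cell receptor signals, stood at 34.1, 18.3, 30.1 and 16.4 CPM in Tnfsf11 cells and at 42.2, 35.8, 40.5 and 43.5 CPM in Tnfsf11-zero cells, a difference of 0.89 (adjusted p = 0.00189). Iigp1, an interferon-induced GTPase gene, stood at 161, 116, 166 and 80.1 CPM against 624, 677, 610 and 447 CPM, a difference of 0.59 (adjusted p = 5.04e-05). Tspan13, a tetraspanin gene, differed by 0.63 (adjusted p = 0.0184).

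Tacc2, a centrosome-associated coiled-coil gene, stood at 33.3, 55.7, 34.0 and 50.6 CPM in Tnfsf11 cells and at 22.0, 25.4, 22.6 and 22.5 CPM in Tnfsf11-zero cells, a difference of −0.57 (adjusted p = 0.033). Of these genes, none kept an adjusted p under 0.05 in the interaction test when Tnfsf11 cells were chosen at equal depth, as cells with a Tnfsf11 UMI after thinning to 2000 UMIs (adjusted p between 0.189 and 0.374). The differences were then 0.60 for Tnfaip8l2, 0.67 for Tspan13, 0.39 for Iigp1 and −0.63 for Tacc2. With the DESeq2 Wald test Iigp1 kept its call (0.60), while Tnfaip8l2 (0.84), Tspan13 (0.66) and Tacc2 (−0.56) had an adjusted p of 0.999911. In that setting 3 genes were called. Without the female WT library the interaction was called for 89 genes and without the male WT library for 160.

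**Figure D5:**
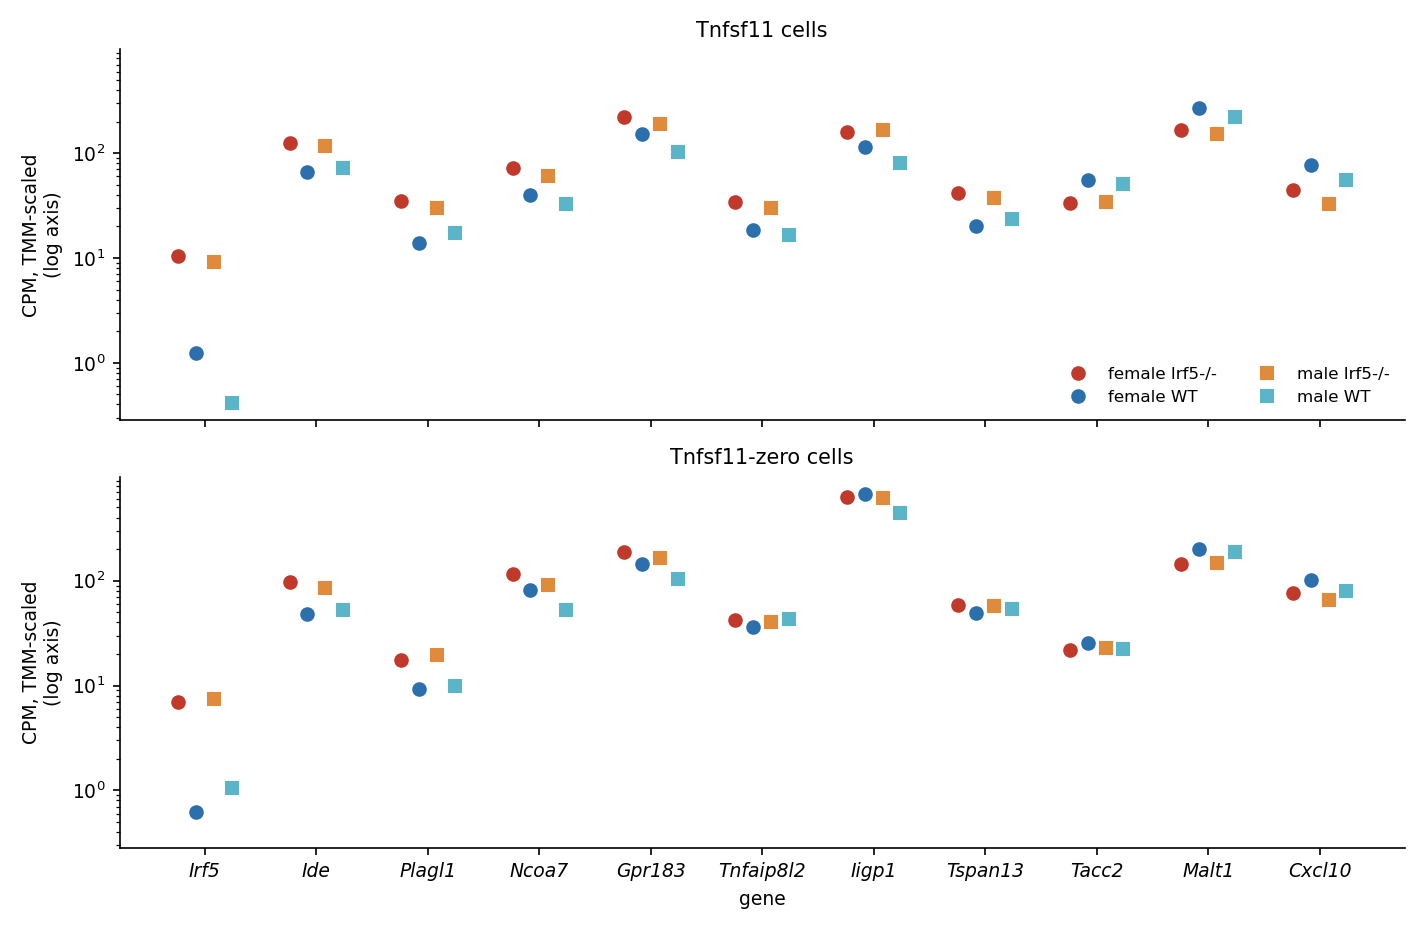
TMM-scaled CPM (vertical axes, log scale) of Irf5 and 10 other genes called between genotype labels, in Tnfsf11 cells (top) and Tnfsf11-zero cells (bottom), with 1 point per library. Tacc2 separates the labels in Tnfsf11 cells (33.3 and 34.0 CPM against 55.7 and 50.6 CPM) and overlaps in Tnfsf11-zero cells (22.0 to 25.4 CPM).

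Sex was tested in the same fit of the Tnfsf11 cells. It was called for 7 of 9606 genes (0.0729%), with 530 at an unadjusted p under 0.05. The 7 were Xist and its antisense Tsix, the Y-linked genes Ddx3y, Eif2s3y, Kdm5d and Uty, and Cdk5rap1. Cdk5rap1 was lower in male libraries by 1.28 on the log2 scale (edgeR adjusted p = 0.04). None of the 4 given markers was called.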

How the data were processed

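Spleen CD4 T cells of 4 libraries were measured by droplet RNA-seq. The deposited values are unfiltered UMI counts per gene and barcode. Per the submitters' processing notes they were made with Cell Ranger 6.0.2 on mm10, while the matrix file headers, as deposited, give Cell Ranger 4. Whether counting used strand is not given in the sources used here. The labels give no batch or date.

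The members and gene lists were chosen with earlier results of these data known. Cells were kept at 2000 UMIs, 500 genes and 10% mitochondrial UMIs. Doublets were left in: scrublet's automatic threshold marked 0.0486 to 2.05% of cells, and removing the highest scores at 0.8% per 1000 cells was an alternative. Total UMIs of Tnfsf11 cells per library ran from 4118753 to 10166917.

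UMIs were summed per library and cell group. Levels are plain CPM, and ratios use a pseudocount of 1 CPM and genes of at least 5 CPM in either group. UMI weighting used 10 bins, and UMI and activation weighting 5 by 5 bins. In the female WT library 392 of 396 Tnfsf11 cells had matching bins. Genotype, sex and interaction were tested with edgeR 4.0.16 (R 4.3.3) quasi-likelihood fits, DESeq2 1.42.0 being an alternative, and all adjusted p-values follow Benjamini-Hochberg over all genes tested. In simulated counts, the genotype test recovered 59% of genes changed by 0.5 (log2) and 93% of those changed by 1. The interaction test recovered 52% and 92.5%. Changes were planted in well-counted genes only, with a common dispersion and no sex or library effect. Recovery among genes of low count was therefore not measured. Shares were tested by exact permutation in Python 3.11.15 with scanpy 1.11.5 for cell scores. Selection of Tnfsf11 cells at equal depth was an alternative chosen after seeing the data.

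Named genes were the 4 given markers, the measured TNF ligand and RANK pathway genes, and Irf5. For each weighted comparison the 15 higher and 10 lower genes of at least 30 CPM with the largest ratio in their weakest library could be named. For genotype, up to 10 called genes per direction of at least 10 CPM and 1 direction in both sexes could be named, and of each list the members of highest level. Gene positions are GENCODE M21 (GRCm38), with 99.6% of 32285 gene IDs matched, and promoter windows are RefSeq, with 3 of the 4 markers matched. Some named genes are not reported here.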

Additional observations from a re-analysis of the deposited data

Results flagged for a closer look

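For 6 genes the genotype difference in Tnfsf11 cells differed from that in Tnfsf11-zero cells by the interaction test in edgeR, on the log2 scale. These were Tnfaip8l2 (0.89, adjusted p = 0.00189), Tspan13 (0.63, adjusted p = 0.0184), Iigp1 (0.59, adjusted p = 5.04e-05) and Tacc2 (−0.57, adjusted p = 0.033), and Il7r (1.06, adjusted p = 1.51e-04) and Lta (−0.59, adjusted p = 0.0192), the last 2 chosen after their values were seen. With Tnfsf11 cells chosen at equal depth, the adjusted p of the 6 lay between 0.189 and 0.663. Without the cells of highest doublet score, Il7r had 0.11 (adjusted p = 0.991), Tacc2 an adjusted p of 0.176 and Lta one of 0.0562.

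The share of gated cells with a Tnfsf11 UMI at 2000 UMIs per cell was 2.51 percentage points lower in the library labelled Irf5-/- in females (−2.51) and 0.863 points higher in males. The difference between the sexes was not tested, since each has 1 library per label.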

How the results depend on the processing

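Genes at least 2-fold higher in Tnfsf11 cells numbered 25, then 12 with UMI weighting and 1 after both weightings, and those lower 738, then 288 and 28. Leaving out each library in turn gave 27 to 36 higher and 767 to 829 lower. These counts could not fall, since fewer libraries then had to pass. The 18 genotype calls became 145 with no filter on low counts, 8 with the DESeq2 Wald test, 5 with no sex term and 55 without the highest doublet scores. They became 43 with at least 1 Tnfsf11 UMI, 192 with no limits on other genes, 11 at a minimum of 4000 UMIs and 91 at equal depth of selection. The 30 interaction calls became 12 with DESeq2 size factors, 96 with no filter, 3 with the DESeq2 Wald test and 12 without the highest doublet scores. They became 17 with at least 1 UMI, 13 with no limits, 75 at 4000 UMIs and 3 at equal depth, and 24 to 160 when each library was left out. The cause of these shifts was not tested. The share difference of −7.17 points ranged from −9.42 to −4.91 when each library was left out, and was −3.77 at a minimum of 4000 UMIs and −0.826 at 2000 UMIs per cell. Leaving out a library from the genotype fit leaves no residual degrees of freedom, so it gave no count. The genotype fit pairs the libraries by sex, and the 5 calls with no sex term are those of the unpaired fit. No log2 ratio, fold change or interaction recomputed for the 42, 16 and 6 genes followed across settings reversed, nor did the mean share difference. Part of this was set by the choice of genes. The named genotype genes had to have 1 direction in both sexes, so leaving out a library could not reverse their fold changes. Genes named from the weighted comparisons had 1 direction in all 4 libraries, which left little room for a reversal on leaving out a library. The male share difference went from −3.02 to 0.863 points on thinning, and some list members changed sign between the comparisons, as given above. With 2 libraries per label the share test cannot reach a p under 0.33.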

Other observations

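Il17a, the cytokine of Th17 cells, had 295, 3, 1 and 59 UMIs in Tnfsf11 cells of the 4 libraries, in 3, 3, 1 and 1 cells. In the female Irf5-/- library 293 of the 295 UMIs lay in 1 cell, and in the male WT library all 59 lay in 1 cell.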
